A study of Mus musculus with 9 samples.

Results

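Collagen genes were described in mouse embryonic fibroblasts (MEFs), cells that secrete much of the connective tissue matrix. Members were taken as every protein-coding gene of the count table whose GENCODE M21 symbol consists of Col, a number, the letter a and a number, which gave 44 genes of the 43629 in the table. MEFs were grown from 9 littermate embryos at E14.5, 1 culture per embryo, from 4 wild-type (WT) and 5 Dp1Tyb embryos of the strain C57BL/6J.129P2. Dp1Tyb is the allele Dp(16Lipi-Zbtb21)1TybEmcf, an extra copy of the part of mouse chromosome 16 (Mmu16) from *Lipi* to *Zbtb21* that is orthologous to human chromosome 21 (Hsa21), and Dp1Tyb mice are used as a model of Down syndrome. Per the study's methods, the embryos were decapitated and eviscerated, the strain was backcrossed to C57BL/6J, and all cultures were grown in DMEM with 10% foetal bovine serum and passaged before RNA was taken. The question of the comparison was whether the duplication changes gene expression, here that of the collagens.

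Depth ranged from 25571442 to 30009361 total counts for the WT cultures and from 24804539 to 26782380 for the Dp1Tyb cultures. The culture names in the labels start with a number that is called the culture set here, and WT replicate 1 and Dp1Tyb replicate 1 carry the number 1, the other 7 cultures the number 2. The cultures WT replicate 1 and Dp1Tyb replicate 2 lay at the edges for many genes: of the 14567 genes tested, they held the lowest value for 23.2% and 27.0%, and the highest for 24.9% and 27.1%, while no other culture held more than 10.0% of either. All 6 fibroblast markers (*Pdgfra*, *Pdgfrb*, *Vim*, *Thy1*, *S100a4* and *Twist1*) were tested, with a summed normalised count of 104665 to 187673 in WT and 127276 to 186206 in Dp1Tyb cultures. *Vim* made up much of that sum, and single markers ran different ways: Dp1Tyb replicate 2 was lowest for *Pdgfra* (3247) and *Pdgfrb* (6921) and highest for *Vim* (130012) and *S100a4* (21266). A normalised count is the read count scaled by edgeR's TMM factors to the mean library size of the 9 cultures.

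Collagens are secreted proteins in which 3 chains wind into a triple helix. Fibrillar collagens form the banded fibrils of skin, tendon and bone, and fibroblasts are a main source of them. Network collagens build basement membranes and other sheets, beaded filaments of collagen VI lie around cells, and fibril-associated collagens with interrupted triple helices (FACITs) sit on the surface of fibrils. Transmembrane collagens stay in the plasma membrane, and multiplexins are basement membrane collagens whose cleavage releases fragments such as endostatin. The chains pass through the endoplasmic reticulum, where they are hydroxylated and folded, and are cleaved and cross-linked outside the cell.

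None of the 44 genes lies in the duplicated region, which spans 75540514 to 97962622 on Mmu16 (GRCm38). *Col8a1* is the 1 collagen gene on Mmu16 and lies on the proximal side of the region, from 57624258 to 57754737. The mouse counterparts of the collagen genes of Hsa21, *Col6a1*, *Col6a2* and *Col18a1*, are on chromosome 10. They start at 76708792, 76595762 and 77052178 and so carry no extra copy in Dp1Tyb.

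RefSeq promoters on GRCm38.p6, the build of the counts, were found for 35 of the 44 genes, with 38 start sites. The 250 bases before each start were searched on both strands for a GC box (GGGCGG, or CCGCCC on the other strand), a CCAAT box (CCAAT or ATTGG) and a TATA box (TATAAA or TTTATA). The GC box was in 22 of the 38 windows (57.9%) and in 32.7% of all 32851 promoters, the CCAAT box in 13 (34.2%) against 33.8%, and the TATA box in 5 (13.2%) against 12.4%. These matches are a description of letters only. Up to 120 of these bases are shown for 6 genes, in capitals where a GC or TATA box matched. *Col3a1* is shown as an abundant gene that varied between cultures (chr1:45311418-45311537, plus strand), *Col7a1* as one that ran against it (chr9:108953466-108953585, plus strand), and *Col11a2* (chr17:34039018-34039137, plus strand), *Col28a1* (chr6:8192618-8192737, minus strand) and *Col18a1* (chr10:77166549-77166650, minus strand) for their genotype difference. *Col8a1* (chr16:57754738-57754857, minus strand) is shown as the gene on Mmu16.
Col3a1: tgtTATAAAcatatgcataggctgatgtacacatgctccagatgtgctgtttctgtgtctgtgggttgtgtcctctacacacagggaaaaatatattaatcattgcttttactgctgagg
Col7a1: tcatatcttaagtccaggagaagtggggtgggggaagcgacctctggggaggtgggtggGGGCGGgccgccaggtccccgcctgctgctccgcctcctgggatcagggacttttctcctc
Col11a2: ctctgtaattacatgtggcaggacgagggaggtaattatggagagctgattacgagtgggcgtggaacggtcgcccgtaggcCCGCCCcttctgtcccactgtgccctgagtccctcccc
Col28a1: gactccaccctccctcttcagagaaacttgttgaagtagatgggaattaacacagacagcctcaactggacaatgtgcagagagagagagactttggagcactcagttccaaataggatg
Col18a1: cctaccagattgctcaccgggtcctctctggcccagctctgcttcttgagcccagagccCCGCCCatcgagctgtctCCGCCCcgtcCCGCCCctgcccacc
Col8a1: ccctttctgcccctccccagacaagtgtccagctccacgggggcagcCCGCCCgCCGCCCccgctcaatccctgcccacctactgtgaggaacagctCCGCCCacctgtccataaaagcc
The stretches shown for *Col18a1* and *Col8a1* held 3 GC boxes each, those for *Col7a1* and *Col11a2* held 1, and that for *Col28a1* held none of the 3 motifs. In the search of 250 bases *Col7a1* and *Col18a1* also had a CCAAT box and *Col11a2* a TATA box.

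Levels between genes were compared as RPKM, the count scaled to the summed exon length of the gene and to the total counts of the culture. Mean RPKM over the 9 cultures was above 100 for 10 of the 44 collagen genes, from 10 to 100 for 10, from 1 to 10 for 6 and below 1 for 18. The highest was *Col1a1*, the main chain of type I collagen, with 2025 ± 383 RPKM in the 4 WT and 2157 ± 572 in the 5 Dp1Tyb cultures (mean ± SD). Its partner chain *Col1a2* had 941 ± 232 RPKM in WT and 985 ± 283 in Dp1Tyb, and *Col3a1*, the chain of type III collagen of extensible tissues, had 745 ± 290 and 728 ± 316. These 3 genes held 60.7% of all collagen counts. Next came the type V chains that regulate fibril diameter, *Col5a2* (467 ± 54.7 in WT and 499 ± 70.8 in Dp1Tyb) and *Col5a1* (421 ± 21.3 and 450 ± 103), then *Col6a1* of the beaded filaments (331 ± 74.6 and 328 ± 106) and the FACIT *Col12a1* (262 ± 51.4 and 266 ± 104). The order of these 7 genes was the same when the coding length replaced the exon length. Neighbours in this order differed by less than the SD of either for *Col1a2* and *Col3a1* in both genotypes, and for *Col5a2* and *Col5a1* and for *Col6a1* and *Col12a1* in Dp1Tyb.

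The 6 basement membrane genes lay at unequal levels. *Col4a1* and *Col4a2*, the chains of most basement membranes, had mean RPKM of 223 and 206, and *Col4a5* had 31.9. *Col4a6* had 0.681, and *Col4a4* and *Col4a3*, chains of the mature glomerular basement membrane, had 0.0534 and 0.0467. Among the beaded filament genes the same gap stood between *Col6a1*, *Col6a2* (120) and *Col6a3* (89.6) and the genes *Col6a5* (0.0909), *Col6a6* (0.0880) and *Col6a4* (0.0364). Cartilage collagens of types II and IX were low, with *Col2a1*, the fibrillar collagen of cartilage, at 0.935, *Col9a1* at 0.207, *Col9a2* at 0.508 and *Col9a3* at 0.348. Higher levels were seen for *Col10a1*, known from hypertrophic cartilage, at 15.3 RPKM, and for *Col11a1*, also a cartilage chain, given below. In *Col10a1*, 18 exon bases overlap *Nt5dc1* on the opposite strand. No transmembrane collagen was above 0.758 RPKM, the level of *Col23a1*. The remaining members were *Col8a1* (61.5), *Col11a1* (46.7), *Col16a1* (46.1), *Col18a1* (32.4), *Col5a3* (22.4), *Col7a1* of the anchoring fibrils (21.4), *Col8a2* (13.1), *Col14a1* (8.95), *Col27a1* (5.10), *Col24a1* (4.85), *Col28a1* (3.33), *Col15a1* (1.44), *Col11a2* (1.00), *Col20a1* (0.916), *Col25a1* (0.431), *Col26a1* (0.169), *Col22a1* (0.125), *Col17a1* (0.0882), *Col19a1* (0.0520) and *Col13a1* (0.0294). The exons of *Col20a1* overlap *BX649560.1* on the same strand over 79 bases, so its level is uncertain. *Col4a1* and *Col4a2* share 22 bases on opposite strands, and *Col4a3*, *Col5a1* and *Col9a3* also overlap genes of the opposite strand, from which reads cannot be told apart unless strand was used in counting.

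**Figure D1:**
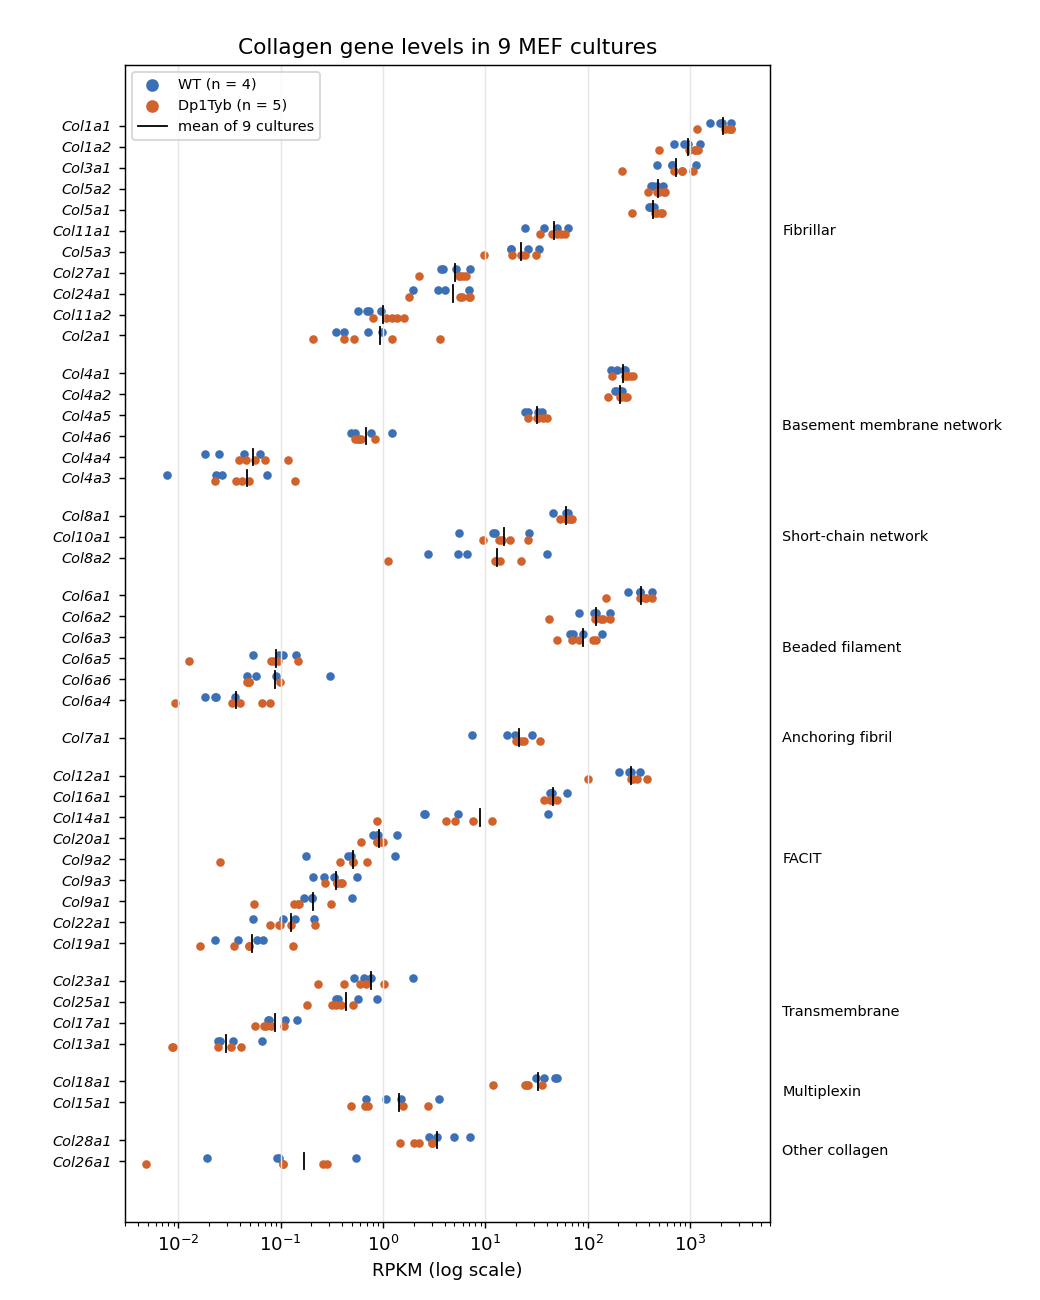
RPKM (log axis) of the 44 collagen genes, grouped by class, with 1 point per culture in blue for WT (n = 4) and orange for Dp1Tyb (n = 5) and a black line at the mean of the 9 cultures. Mean levels run from 0.0294 for *Col13a1* to 2098 for *Col1a1*, and the points of both genotypes overlap for all genes tested.

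The collagen genes varied more between cultures than most genes. The SD of log2(normalised count + 1) over the 9 cultures had a median of 0.59 over the 41 collagen genes tested and of 0.22 over all 14567 genes tested. It was above the median of all genes for 37 of the 41, and 15 were above 0.67, the value that 10% of all genes exceeded. The steadiest collagen gene was *Col16a1*, a FACIT of fibroblasts, with an SD of 0.18, and the least steady was *Col26a1* with 1.80. The steady end also held *Col4a2* (0.19), *Col8a1* (0.20), *Col5a2* (0.20), *Col4a1* (0.25), *Col4a5* (0.25) and *Col5a1* (0.27), whereas *Col3a1* had 0.70.

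The same 2 cultures held most of the extremes. Dp1Tyb replicate 2 had the lowest normalised count for 25 of the 41 genes (61.0%; 27.0% of all genes tested). WT replicate 1 had the highest for 18 of the 41 (43.9%; 24.9% of all genes tested). Relative to each gene's median over the cultures, the median collagen gene was at -0.57 on the log2 scale in Dp1Tyb replicate 2 and at 0.35 in WT replicate 1. The 4 collagen genes that were highest in Dp1Tyb replicate 2 were *Col2a1*, *Col4a3*, *Col4a4* and *Col7a1*. *Col7a1* was also the 1 collagen gene with its lowest count in WT replicate 1, so the chain of the anchoring fibrils ran opposite to most of the family in both cultures.

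**Figure D2:**
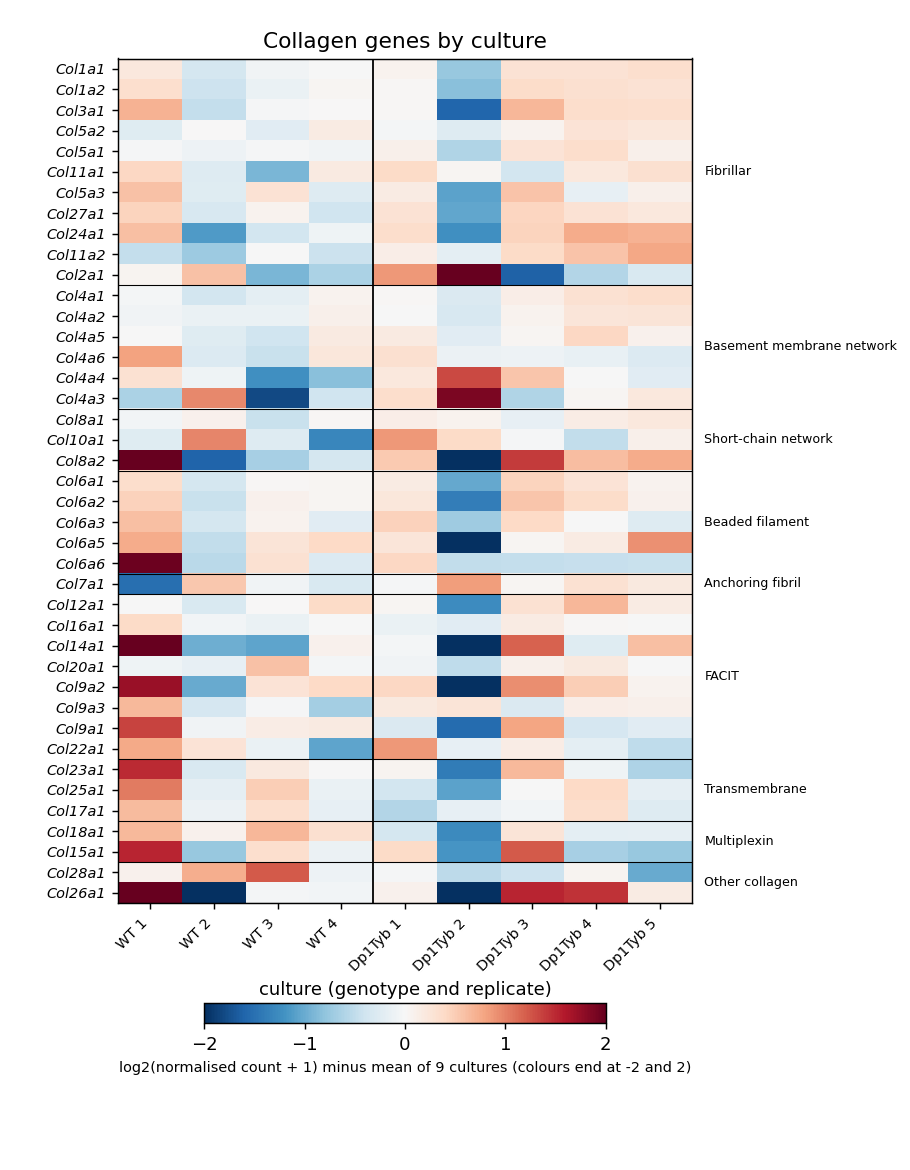
Deviation of log2(normalised count + 1) from its mean over the 9 cultures for the 41 collagen genes tested, by culture (columns) and class (rows), with red above and blue below the mean and colours ending at -2 and 2. The column of Dp1Tyb replicate 2 is mostly blue and that of WT replicate 1 mostly red. Measured from each gene's median over the cultures instead of its mean, the median gene was at -0.57 and 0.35 in these 2 cultures.

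For *Col3a1*, normalised counts were 283229, 125059, 171068 and 175149 in WT replicates 1 to 4 and 176690, 58010, 277541, 222268 and 220462 in Dp1Tyb replicates 1 to 5. For *Col1a1* they were 411395, 276412, 336177 and 353764 in WT and 371217, 209400, 434459, 432375 and 446625 in Dp1Tyb. For *Col1a2* they were 386436, 229120, 280508 and 315234 in WT and 311746, 171493, 396782, 381816 and 375751 in Dp1Tyb. In all 3 genes Dp1Tyb replicate 2 was lowest and WT replicate 2 next lowest, and the genotypes overlapped. *Col12a1*, a FACIT that bridges fibrils, had 100698, 82029, 101126 and 131923 in WT and 103620, 42057, 124065, 159646 and 113597 in Dp1Tyb, with the same 2 cultures lowest. *Col5a1* had 94703, 90160, 94533 and 92160 in WT and 104020, 63788, 116496, 123005 and 103382 in Dp1Tyb. Its 4 WT cultures lay closely together, and its Dp1Tyb cultures lay above them apart from replicate 2, which lay below. *Col5a2* had 102985, 122159, 104805 and 136905 in WT and 119325, 102358, 128201, 148060 and 142916 in Dp1Tyb. *Col4a1* had 42410, 33668, 38023 and 45619 in WT and 44335, 35358, 47668, 53455 and 55279 in Dp1Tyb. From the lowest to the highest culture these 2 genes spanned 1.45-fold and 1.64-fold, less than the 4.88-fold of *Col3a1*.

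The collagen genes took 6.67%, 4.21%, 5.01% and 5.44% of all counts in WT replicates 1 to 4 and 5.59%, 2.96%, 6.59%, 6.36% and 6.18% in Dp1Tyb replicates 1 to 5. The mean share was 5.33% ± 1.03 for WT (SD, n = 4) and 5.54% ± 1.49 for Dp1Tyb (SD, n = 5), a difference below either SD. Dp1Tyb replicates 1, 3, 4 and 5 lay between 5.59% and 6.59%, and replicate 2 lay below every other culture of both genotypes. Without Dp1Tyb replicate 2 the difference, Dp1Tyb minus WT, was 0.848 percentage points, and without WT replicate 2 it was -0.17. Within culture set 2 it was 0.636.

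Markers of smooth muscle or myofibroblasts (*Acta2*, *Tagln*, *Cnn1*, *Myh11* and *Actg2*) also differed between these cultures. All 5 were tested and none was called between the genotypes at an adjusted p below 0.05. Of all genes tested only 0.165% were called, so this says little about 5 genes. Their summed normalised count was 35690, 136184, 80805 and 89612 in WT and 89190, 196728, 58379, 93737 and 89799 in Dp1Tyb. It was highest in Dp1Tyb replicate 2, where most collagen genes were lowest, next highest in WT replicate 2, and lowest in WT replicate 1. None of the 5 markers was at the floor of 3 counts in every culture. The part of these markers in the collagen differences was not tested, and in RNA from whole cultures fewer cells of a type and less RNA per cell cannot be told apart.

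The largest spreads belonged to genes of low or middle level. *Col8a2*, a short-chain collagen of vessel walls and the cornea, had 4534, 330, 634 and 790 normalised counts in WT and 1445, 140, 2662, 1543 and 1678 in Dp1Tyb. *Col14a1*, a FACIT, had 7134, 482, 456 and 1003 in WT and 923, 169, 2152, 798 and 1436 in Dp1Tyb. In both genes WT replicate 1 was highest and Dp1Tyb replicate 2 lowest. *Col9a2*, a cartilage FACIT, had 102, 14.51, 36.7 and 40.1 in WT and 40.5, 2.16, 58.0, 43.0 and 31.6 in Dp1Tyb, and *Col26a1* had 112, 4.15, 20.4 and 20.0 in WT and 22.2, 1.08, 62.0, 58.4 and 23.4 in Dp1Tyb. These 2 genes gave the same extremes at counts so low that Dp1Tyb replicate 2 was at the floor of 3 counts for both. *Col2a1* had 164, 238, 83.5 and 101 in WT and 290, 922, 51.0, 105 and 128 in Dp1Tyb, so for this gene Dp1Tyb replicate 2 was far above the rest. The summed chondrocyte markers *Acan*, *Sox9*, *Sox5*, *Comp*, *Matn1*, *Matn3* and *Hapln1* were not highest in that culture. They were 1607, 963, 915 and 1033 in WT and 1117, 844, 803, 946 and 866 in Dp1Tyb, and *Sox9* and *Comp* held much of the sum. *Matn1* was at the floor in every culture, and 6 of the 7 markers were tested. None was called (0.165% of all genes tested were), and *Comp* had an unadjusted p below 0.05 (log2 fold change -1.20, unadjusted p = 0.0487, edgeR). The part of cartilage cells in the value of *Col2a1* was not tested.

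No collagen gene passed the test between the genotypes. Among the 41 collagen genes tested, 0 had an adjusted p below 0.05 in edgeR's two-sided quasi-likelihood test, against 24 of 14567 genes, or 0.165%, over the whole table, all of them higher in Dp1Tyb. DESeq2, fitted without edgeR's low-count filter, called 0 of 44 collagen genes, against 68 of 24436 genes, or 0.278%. These totals hold every gene given a p, also any that DESeq2's own filter left without an adjusted p, so the share is not on edgeR's scale. The lowest adjusted p of a collagen gene was 0.836 in edgeR. An unadjusted p below 0.05 was found in 3 collagen genes by edgeR (7.32% of 41), against a share of 3.13% of all 14567 genes. By DESeq2 it was found in 3 of 44 collagen genes, against 2.28% of 24436 genes, a set with more low counts. In 0 of the 41 genes did the normalised counts of the genotypes fall into separate ranges, which they did in 1.36% of all genes tested. *Col19a1*, *Col6a4* and *Col13a1* had too few counts to be tested by edgeR, at most 23 in any culture.

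The log2 fold change, Dp1Tyb vs WT, was above 0 for 23 of the 41 genes and below 0 for 18. Its median was 0.03, and that of all genes tested was 0.00268. It ran from -1.05 for *Col14a1* to 1.03 for *Col2a1*, and both ends turned on 1 culture: *Col14a1* was at 0.76 without WT replicate 1 and *Col2a1* at -0.03 without Dp1Tyb replicate 2. The 95% confidence interval lay within a 1.5-fold change either way for 7 of the 41 and within a 2-fold change for 22. For the other 19 genes the interval reached past a 2-fold change in at least 1 direction.

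**Figure D3:**
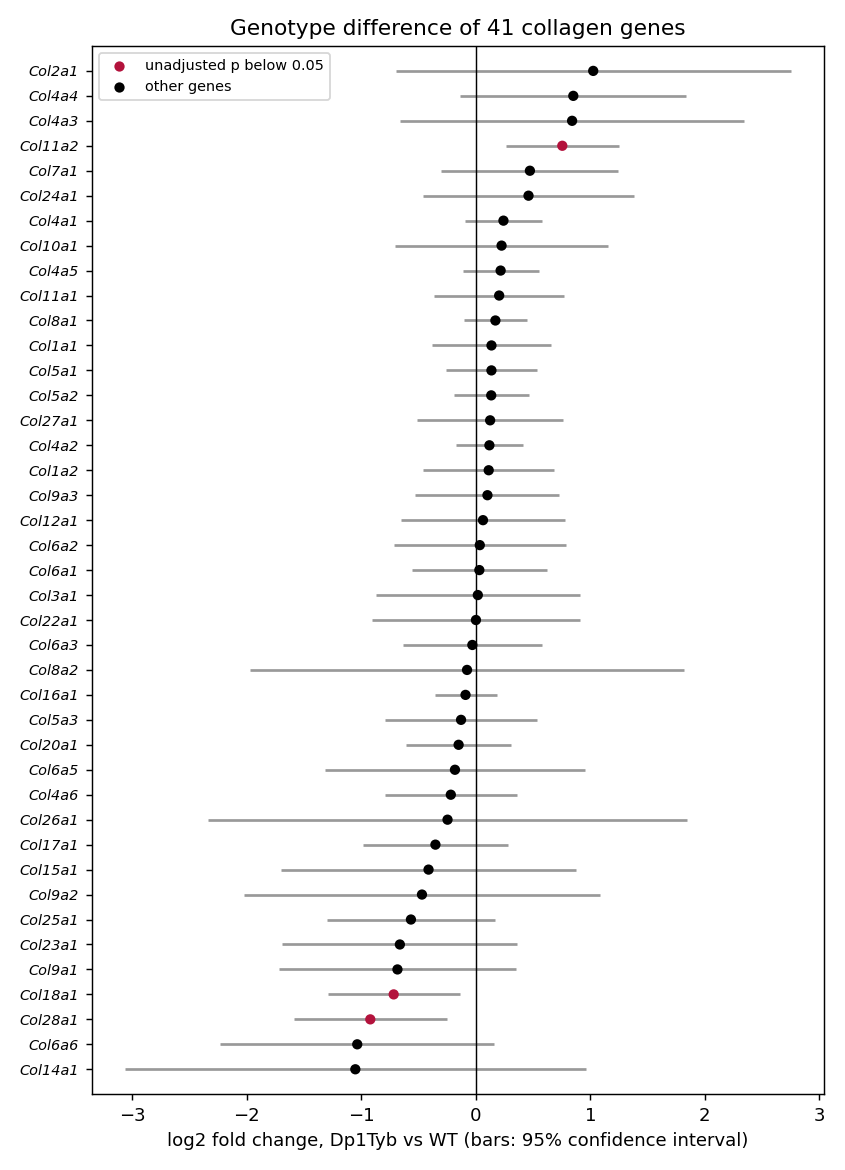
log2 fold change (Dp1Tyb vs WT) of the 41 collagen genes tested, with bars for the 95% confidence interval and red points for an unadjusted p below 0.05. The 3 red genes are *Col11a2* (0.76), *Col18a1* (-0.72) and *Col28a1* (-0.92), and none had an adjusted p below 0.836 in edgeR.

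Among the abundant genes the fold changes were small beside their intervals. The log2 fold change was 0.14 for *Col1a1* (95% interval -0.38 to 0.65), 0.11 for *Col1a2* (-0.46 to 0.69), 0.02 for *Col3a1* (-0.88 to 0.91), 0.14 for *Col5a2* (-0.19 to 0.46), 0.14 for *Col5a1* (-0.26 to 0.53), 0.06 for *Col12a1* (-0.65 to 0.78) and 0.24 for *Col4a1* (-0.09 to 0.58). A 2-fold difference in either direction lies outside all 7 of these intervals. By class, the fold change was above 0 for 10 of 11 fibrillar genes (median 0.14), 5 of 6 basement membrane genes (0.23), 2 of 3 short-chain genes (0.17), 2 of 5 beaded filament genes tested (-0.03), 3 of 8 FACIT genes tested (-0.12) and for *Col7a1* (0.47). It was below 0 for the 3 transmembrane genes tested (median -0.57), for both multiplexins (-0.56) and for *Col26a1* and *Col28a1* (-0.58). The transmembrane genes were at most at 0.758 RPKM, and WT replicate 1 was highest for all 3 tested and for *Col15a1* and *Col26a1*. For *Col18a1* and *Col28a1* it was WT replicate 3. No gene of any class was called.

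These counts depended on the 2 cultures that stood apart. With both WT replicate 1 and Dp1Tyb replicate 2 left out, still 0 of 41 collagen genes were called by edgeR (0.274% of all genes were), but 16 had an unadjusted p below 0.05 (39.0%, against 9.71% of 14603 genes), 14 of them higher in Dp1Tyb. The median log2 fold change of the collagen genes was then 0.29, and that of all genes 0.00173. The pair was chosen after the values were seen, and it takes away the WT culture that was highest for 18 of the 41 collagen genes and the Dp1Tyb culture that was lowest for 25, so the choice itself moves the fold changes toward Dp1Tyb. The lowest of the 16 was *Col8a2*, with a log2 fold change of 1.65 (SE 0.32, edgeR adjusted p = 0.157) in place of -0.08 with all 9 cultures. Without WT replicate 1 alone the median was 0.21 and 3 genes had an unadjusted p below 0.05, as had 2.98% of all genes in that fit. Without Dp1Tyb replicate 2 alone the values were 0.14 and 6 genes (4.38% of all), and without WT replicate 2 they were -0.08 and 7 genes (3.11% of all). Within culture set 2 the median was 0.14 and 3 genes had such a p (3.0% of all), with 0 called (0.00686% of all, or 1 gene).

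*Col11a2*, a minor fibrillar chain best known from cartilage and the inner ear, had the lowest p of the collagen genes. Its normalised counts were 124, 105, 173 and 128 in WT and 189, 150, 226, 257 and 296 in Dp1Tyb. Dp1Tyb replicate 2 lay below WT replicate 3, and the other Dp1Tyb cultures lay above all WT cultures. The log2 fold change was 0.76 (SE 0.22, 95% interval 0.26 to 1.25, unadjusted p = 0.00671 and adjusted p = 0.836, edgeR). Within culture set 2 it was 0.78, with an unadjusted p of 0.0216 in edgeR.

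*Col28a1*, a gene of the von Willebrand domain type known from Schwann cells of peripheral nerve, had 412, 649, 911 and 364 normalised counts in WT and 385, 269, 291, 403 and 192 in Dp1Tyb. WT replicates 1 to 3 were above all Dp1Tyb cultures, replicate 1 only narrowly, and WT replicate 4 lay among them. The log2 fold change was -0.92 (SE 0.30, 95% interval -1.59 to -0.25, unadjusted p = 0.012 and adjusted p = 1.0, edgeR), and -0.62 without WT replicate 3. Within culture set 2 it was -1.15.

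*Col18a1*, the multiplexin that holds endostatin, had 8784, 5915, 8831 and 6986 normalised counts in WT and 4394, 2316, 6695, 4890 and 4913 in Dp1Tyb. Dp1Tyb replicate 3 was above WT replicate 2, and the other 4 Dp1Tyb cultures were below all WT cultures. The log2 fold change was -0.72 (SE 0.26, 95% interval -1.29 to -0.14, unadjusted p = 0.0198 and adjusted p = 1.0, edgeR). Its unadjusted p was 0.0534 without WT replicate 1, 0.0547 without WT replicate 3 and 0.0921 within culture set 2 (edgeR), where the log2 fold change was -0.62.

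Markers of Schwann or neural crest cells had lower summed counts in Dp1Tyb, the same direction as *Col28a1* and *Col18a1*. *Sox10*, *S100b*, *Foxd3* and *Erbb3* summed to 1126, 673, 1124 and 544 normalised counts in WT and 349, 326, 485, 257 and 155 in Dp1Tyb, so the sums of the genotypes did not overlap. All 4 of these markers were tested, and 3 had an unadjusted p below 0.05 with negative fold changes, while 0 were called, beside the 3.13% and 0.165% of all genes given above. The fourth, *S100b*, had a log2 fold change of 0.15 and its highest normalised count, 120, in Dp1Tyb replicate 2. The defining marker *Sox10* had 395, 263, 444 and 197 in WT and 117, 80.1, 179, 78.2 and 42.8 in Dp1Tyb, a log2 fold change of -1.71 (adjusted p = 0.403, edgeR). WT replicate 3, highest for *Col28a1* and *Col18a1*, was also highest for *Sox10*, but the sum was slightly higher in WT replicate 1. Within WT, *Col28a1* was 412 in replicate 1, with a sum of 1126, and 649 in replicate 2, with a sum of 673. *Col18a1* was 8784, 5915, 8831 and 6986 in WT, higher in replicates 1 and 3, as was the sum. Among the Dp1Tyb cultures, *Col18a1* (6695) and the sum (485) were both highest in replicate 3. In both genotypes *Col18a1* and the sum had their lowest values in different replicates. None of the 4 was at the floor in every culture, and their part in the values of *Col28a1* and *Col18a1* was not tested.

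*Col4a4* and *Col6a6* came next by p, at very low counts. *Col4a4* had 16.6, 12.4, 5.09 and 7.01 normalised counts in WT and 15.4, 34.6, 20.0, 13.2 and 11.2 in Dp1Tyb (log2 fold change 0.85, 95% interval -0.13 to 1.84, unadjusted p = 0.0827, edgeR). Its highest value was in Dp1Tyb replicate 2, without which the log2 fold change was 0.52, and without WT replicate 1 it was 1.20. *Col6a6* had 69.8, 11.4, 21.4 and 14.02 in WT and 23.2, 11.9, 12, 12.1 and 12.2 in Dp1Tyb (log2 fold change -1.04, 95% interval -2.23 to 0.16, unadjusted p = 0.0828, edgeR). WT replicate 1 stood far above every other culture for *Col6a6*, and without it the log2 fold change was -0.12.

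The Hsa21 counterparts gave unequal values. *Col6a1* had 46808, 28806, 37115 and 37575 normalised counts in WT and 41248, 18008, 49733, 44391 and 38629 in Dp1Tyb, with a log2 fold change of 0.03 (SE 0.26, 95% interval -0.56 to 0.62). *Col6a2* had 34119, 18180, 26191 and 25593 in WT and 28994, 9536, 36581, 31990 and 26222 in Dp1Tyb, with a log2 fold change of 0.04 (SE 0.34, 95% interval -0.72 to 0.79). For both chains of collagen VI the genotypes overlapped almost fully, while *Col18a1* had the values given above, and the difference between these genes was not tested. *Col8a1*, a short-chain collagen and the member on Mmu16, had 12197, 13394, 9293 and 12797 in WT and 13925, 13266, 11243, 13987 and 14708 in Dp1Tyb. Its log2 fold change was 0.17 (SE 0.12, 95% interval -0.10 to 0.45), an interval within a 1.5-fold change either way.

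**Figure D4:**
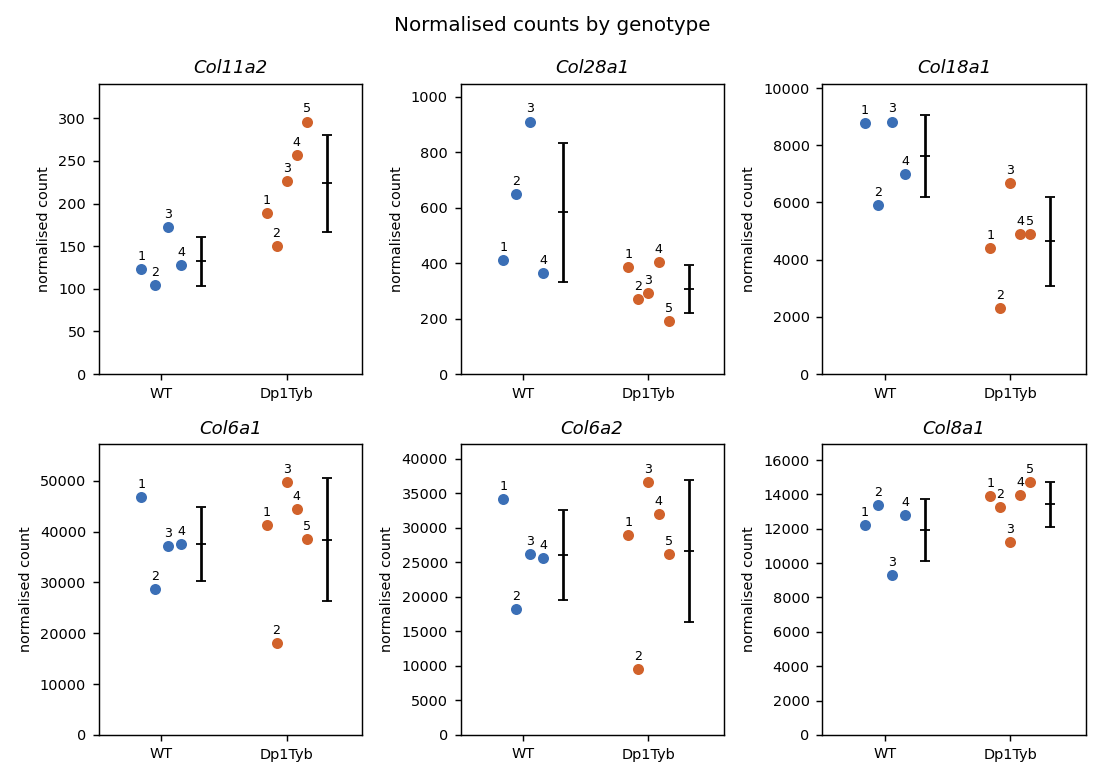
Normalised counts by genotype (linear axes from 0) of the 3 collagen genes with an unadjusted p below 0.05, the collagen VI genes with counterparts on Hsa21, and *Col8a1* on Mmu16, with replicate numbers beside the points and the mean ± SD at the side. The WT points of *Col18a1* run from 5915 to 8831 and its Dp1Tyb points from 2316 to 6695, while *Col6a1* of Dp1Tyb replicate 2, at 18008, is below all other cultures.

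For 3 pairs of chains that assemble into one protein the ratio varied less between cultures than either chain, and for the other 2 pairs it did not. The ratio of *Col1a1* to *Col1a2* was 2.17 ± 0.127 in WT and 2.21 ± 0.0962 in Dp1Tyb (SD of RPKM ratios, n = 4 and 5), and its SD on the log2 scale was 0.07, against 0.36 and 0.41 for the chains themselves. The ratio of *Col4a1* to *Col4a2*, genes that face each other across a shared promoter region, was 1.03 ± 0.0772 and 1.12 ± 0.0184 (log2 SD 0.10, against 0.25 and 0.19 for the chains). The ratio of *Col6a1* to *Col6a2* was 2.78 ± 0.174 and 2.86 ± 0.414 (log2 SD 0.15, against 0.45 and 0.60). The ratio of *Col5a1* to *Col5a2* was 0.913 ± 0.137 and 0.894 ± 0.132, and its log2 SD of 0.21 lay between the 0.27 and 0.20 of its chains. For 3 of these 4 pairs the difference between the genotypes was smaller than the larger SD. For *Col4a1* to *Col4a2* it was larger, and the WT cultures, from 0.917 to 1.10, met the lower end of the Dp1Tyb cultures, from 1.09 to 1.14. The ratio of *Col3a1* to *Col1a1*, chains of different proteins, ran from 0.185 in Dp1Tyb replicate 2 to 0.46 in WT replicate 1 (log2 SD 0.37). *Col8a1* to *Col8a2*, whose chains occur in the same network, ran from 1.54 in WT replicate 1 to 54.5 in Dp1Tyb replicate 2 (log2 SD 1.57, above the 0.20 and 1.54 of its chains), and *Col8a1* spanned 1.58-fold between cultures and *Col8a2* 32.5-fold. The level of each ratio depends on the length used: with coding lengths the mean of *Col1a1* to *Col1a2* was 1.09 in place of 2.19 over the 9 cultures, that of *Col6a1* to *Col6a2* 1.5 in place of 2.82 and that of *Col8a1* to *Col8a2* 21 in place of 12.8, which was 7.58 without Dp1Tyb replicate 2.

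**Figure D5:**
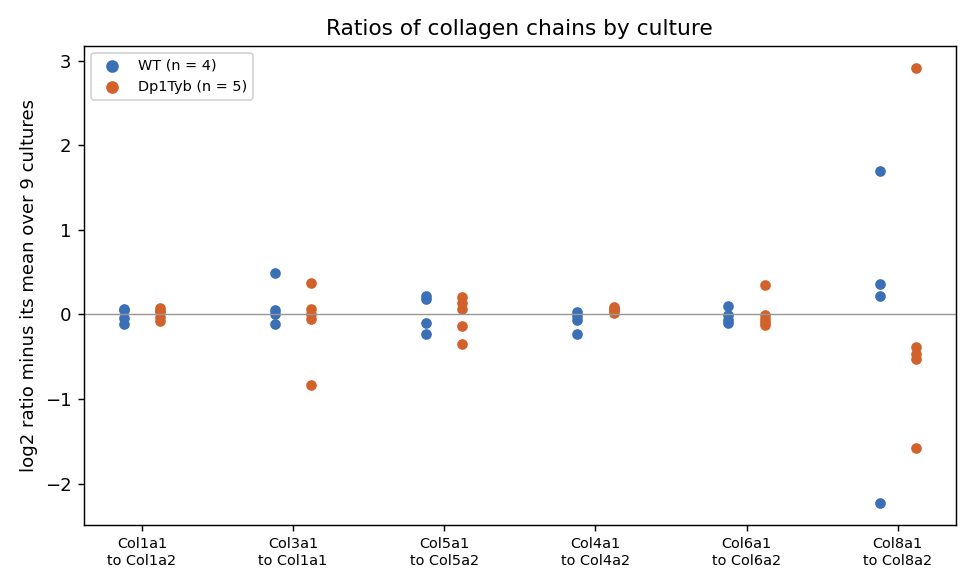
log2 of the RPKM ratio of 6 pairs of collagen genes, minus its mean over the 9 cultures, with 1 point per culture in blue for WT (n = 4) and orange for Dp1Tyb (n = 5). The points of *Col1a1* to *Col1a2* lie closest together (SD 0.07) and those of *Col8a1* to *Col8a2* farthest apart (SD 1.57).

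Genes that act on collagen were followed in 5 lists of 62 genes, of which 61 were symbols of the table, 56 were tested and 0 were called by edgeR. Over all genes tested the share called was 0.165%. An unadjusted p below 0.05 was found for 2 of them, against the 3.13% of all genes given above. Of the 19 genes tested for folding and modification, 14 had a log2 fold change above 0 and 5 below (median 0.04), and their median SD over the cultures was 0.15, the smallest of the lists. *P4ha1*, a prolyl hydroxylase subunit, had the lowest p there, with 5956, 8642, 6520 and 7304 normalised counts in WT and 8293, 10295, 6382, 8088 and 8021 in Dp1Tyb (log2 fold change 0.21, SE 0.15). Dp1Tyb replicate 2, lowest for most collagen genes, was highest for *P4ha1*.

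For secretion and procollagen cleavage, 8 of the 12 genes tested were above 0 and 4 below (median 0.07). *Adamts14*, a procollagen N-proteinase, had 699, 562, 520 and 612 in WT and 826, 707, 610, 683 and 1020 in Dp1Tyb (log2 fold change 0.36, SE 0.15, unadjusted p = 0.041 and adjusted p = 1.0, edgeR). Of the 5 cross-linking genes 4 were above 0 (median 0.19), and *Loxl2*, a lysyl oxidase, had 5829, 10075, 10228 and 12485 in WT and 10624, 11685, 11464, 17721 and 14148 in Dp1Tyb (log2 fold change 0.44, SE 0.22). The genotypes overlapped in both genes. Of the 9 receptor and uptake genes tested 7 were above 0 (median 0.19), and *Mrc2*, an uptake receptor for collagen, had 19393, 17215, 18441 and 21167 in WT and 21212, 17260, 26382, 27330 and 27485 in Dp1Tyb (log2 fold change 0.33, SE 0.15, unadjusted p = 0.0519, edgeR). Of the 11 fibril regulators 6 were above 0 (median 0.12). Among them *Fn1*, the fibronectin on which collagen is laid down, had 329814, 432102, 394634 and 437069 in WT and 495523, 482749, 429147, 626834 and 518062 in Dp1Tyb (log2 fold change 0.36, SE 0.16, unadjusted p = 0.0457 and adjusted p = 1.0, edgeR). Only Dp1Tyb replicate 3 fell inside the WT range of *Fn1*.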

How the data were processed

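RNA of the 9 cultures was sequenced from stranded mRNA libraries. Per the study's methods and the labels, the authors trimmed reads with Trim Galore, mapped them to GRCm38 with TopHat 2.0.12, discarded reads that aligned to several places and deposited counts per Ensembl gene from htseq-count. The annotation release and strand option of the counting are not given in the sources used here. Normalised values and a table of the authors' own comparison were not used. Members and gene lists were chosen with earlier results of these data known.

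Positions, exon lengths and symbols came from GENCODE M21, which matched 42462 of the 43629 genes. The whole table was tested with edgeR 4.0.16 in R 4.3.3 (TMM, edgeR's low-count filter, quasi-likelihood test, two-sided, no covariate, Benjamini-Hochberg adjustment over 14567 genes, threshold 0.05), and the code was tested on simulated data. A pseudocount of 1 was added before log2 for SDs. A gene with at most 3 counts was at the floor, which covers counting error only. Alternatives were other size factors, DESeq2 1.42.0 with and without its beta prior, other count filters, the culture set, a replicate block, a threshold of 0.01, coding lengths and each culture left out.

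Named genes were the 8 highest by RPKM, the 5 with the lowest p, the 5 with the largest SD, *Col6a1*, *Col6a2*, *Col18a1*, *Col8a1* and the lowest p of each related list. *Col16a1*, the low cartilage genes and others outside this rule were named after their values were seen. Ratios of chains were computed for 6 pairs. Some genes of the Schwann or neural crest list are not reported here. The summed normalised counts of the other marker lists were 758 to 2715 in WT and 288 to 4163 in Dp1Tyb for macrophages, 189 to 404 and 146 to 526 for endothelium, 244 to 541 and 224 to 331 for epithelium, and 731 to 1548 and 788 to 1221 for tendon. For skeletal muscle they were 179 to 430 in WT and 345 to 1020 in Dp1Tyb. Nearly all of this was *Des* (log2 fold change 1.35, adjusted p = 0.547, edgeR), with *Myod1*, *Myog*, *Myf5* and *Ckm* at the floor in every culture. For osteoblasts they were 46355 to 233316 in WT and 84687 to 228164 in Dp1Tyb (nearly all *Spp1*, with *Bglap* at the floor).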

Additional observations from a re-analysis of the deposited data

Results flagged for a closer look

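In these results 1 culture lay far from the others of its genotype, by the gap to its nearest neighbour over the range of the group. The nominal rate at which chance marks a group in this way is about 1 in 20, and the rate in these data was not measured. Among the WT cultures, replicate 1 was the far one for *Col26a1* (112 normalised counts, the others 4.15 to 20.4), *Col8a2* (4534, the others 330 to 790) and *Col14a1* (7134, the others 456 to 1003). Among the Dp1Tyb cultures, replicate 2 was the far one for *Col2a1* (922 normalised counts, the others 51.0 to 290), for the share of counts from collagen genes (2.96%, the others 5.59% to 6.59%), for the ratio of *Col6a1* to *Col6a2* (3.59, the others 2.58 to 2.80) and for the ratio of *Col8a1* to *Col8a2* (54.5, the others 2.42 to 5.52). Dp1Tyb replicate 1 was the far one for *Col6a6* (23.2 normalised counts, the others 11.9 to 12.2), a difference of few reads. Of these 8 results, 7 fell on the 2 cultures that stood apart across all genes. The 8 are not independent, as the ratio of *Col8a1* to *Col8a2* carries the spread of *Col8a2*.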

How the results depend on the processing

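In all 21 other fits and at an adjusted p below 0.01, 0 collagen genes and 0 of the related genes were called, and the lowest adjusted p of a collagen gene in any fit was 0.154 (DESeq2). Over the whole table these fits called from 0 (replicate block) or 1 gene (culture set 2 alone) to 68 (DESeq2). The share called among genes given a p was at most 0.278% in any fit, the main one included. A count of 0 among so few collagen genes therefore says little about collagens in all of them. When a single culture was dropped, 2 to 7 collagen genes had an unadjusted p below 0.05. The median log2 fold change of the collagen genes then ran from -0.079 to 0.205, and the difference in collagen share from -0.17 to 0.848 percentage points. It was 1.29 with WT replicate 1 and Dp1Tyb replicate 2 both left out, an alternative added after the data were seen. Deviations from the genotype means correlated at 0.259, 0.741, 0.0315 and 0.378 between the WT and Dp1Tyb cultures numbered 1 to 4, and 2 of the 4 WT and 3 of the 4 Dp1Tyb cultures correlated best with their own number. This is a hint of pairing from the data for some numbers. Replicate 3 did not show it, and no label ties the numbers to a litter or day, so both fits are given. With a replicate block on replicates 1 to 4, 0 genes of the whole table were called, against 3 without the block. The median of the collagen genes was then 0.015 and 5 collagen genes had an unadjusted p below 0.05, against 0.039 and 3 without it.

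Of the 25 named genes, 9 changed sign in some fit, with causes not tested. Under the replicate block the log2 fold change was -0.186 for *Col3a1*, -0.048 for *Col6a1*, -0.082 for *Col12a1*, -0.086 for *Col6a2*, 0.123 for *Col26a1* and 0.074 for *Col8a2*, and on replicates 1 to 4 without the block -0.038 for *Col3a1*. With the culture set as a covariate it was 0.465 for *Col26a1*, 0.746 for *Col8a2* and 0.096 for *Col14a1*, and within culture set 2 it was 1.28, 1.36 and 0.817, with 0.148 for *Col9a2*. With WT replicate 1 and Dp1Tyb replicate 2 both left out it was 1.47, 1.65, 1.04 and 0.508 for these 4 genes. Leaving out each culture in turn gave -0.156 to 0.285 for *Col3a1*, -0.079 to 0.211 for *Col6a1*, -0.106 to 0.25 for *Col6a2*, -0.117 to 0.269 for *Col12a1*, -0.616 to 1.16 for *Col26a1*, -0.412 to 1.36 for *Col8a2*, -1.45 to 0.764 for *Col14a1*, -0.768 to 0.208 for *Col9a2* and -0.031 to 1.36 for *Col2a1*. With coding lengths the chain ratios moved to 1.09 for *Col1a1* to *Col1a2*, 0.501 for *Col3a1* to *Col1a1*, 0.651 for *Col5a1* to *Col5a2*, 1.24 for *Col4a1* to *Col4a2*, 1.5 for *Col6a1* to *Col6a2* and 21 for *Col8a1* to *Col8a2*. The spread between cultures, and for the genes below 1 RPKM the count, limits what could be detected.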
